A study of Mus musculus with 9 samples.

Results

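Carbonic anhydrases are zinc enzymes that interconvert carbon dioxide and water with bicarbonate and a proton. In liver, mitochondrial and cytosolic forms supply the bicarbonate that ureagenesis, gluconeogenesis and fatty acid synthesis fix, while membrane forms handle bicarbonate and acid at the cell surface and in bile ducts. Car9 and Car12, the membrane forms best known from hypoxic and acidic tumors, are widely used as markers of hypoxia, and Car9 is a direct target of the hypoxia-inducible factors. The 9 carbonic anhydrase genes described here, Car2, Car3, Car4, Car5a, Car8, Car9, Car12, Car13 and Car14, were taken by symbol from the 18194 genes that the array measures with probe sets carrying a single symbol. They are covered by 19 probe sets, and 7 further genes of the family (Car1, Car5b, Car6, Car7, Car10, Car11 and Car15) were measured on the same arrays.

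Gene expression was profiled on 9 Affymetrix arrays, 3 for each of 3 kinds of liver tissue from untreated male C57Bl6 mice aged 12 months and kept on regular chow. Wild-type liver came from a mouse diagnosed as normal with mild steatosis. Tumor pieces came from a hepatocellular carcinoma with severe steatosis in a SART1+/- mouse, heterozygous for Sart1, a gene whose product has been linked to turnover of hypoxia-inducible factor. Adjacent-labelled liver came from the uninvolved liver of that same SART1+/- mouse, diagnosed with cellular alteration and severe steatosis. The 3 arrays of a group were pieces of the liver of a single animal, so the p-values below measure the spread between pieces, and against wild-type liver genotype, animal, steatosis and tumor cannot be told apart. Tumor and adjacent-labelled pieces share animal, genotype label and grade of steatosis. Values are log2 expression as the authors deposited them, so a difference of 1 is a factor of 2, and errors are SD over 3 pieces. Differences were tested with limma across 13888 genes, and a gene was called where the Benjamini-Hochberg adjusted p was under 0.05 and the log2 difference was at least 1 in size. Comparisons with wild-type liver share the same 3 wild-type arrays.

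The 12 tested hepatocyte markers averaged 13.73 to 13.87 over the 9 arrays and none was called in any comparison. These averages lie near the top of the arrays, whose highest values are 14.43 to 14.51. Whether that compresses their differences was not tested. Pieces of a group correlated at 0.996 to 0.998 over all probe sets. Tumor pieces had 0.60 less Sart1 than wild-type pieces (adjusted p = 2.61e-06, limma). Between adjacent-labelled and wild-type liver Sart1 differed by 0.03 (adjusted p = 0.678, limma). Another Sart1 probe set differed from wild-type liver by -0.33 in tumor and by -0.14 in adjacent-labelled liver (adjusted p = 0.0104 and 0.214, limma). It differed by -0.19 between tumor and adjacent-labelled liver (adjusted p = 0.129, limma). The arrays thus do not show a lower Sart1 in the pieces labelled adjacent. The 3′ to 5′ difference of the Actb control probe sets averaged 0.86 ± 0.02 for wild-type, 0.85 ± 0.05 for adjacent-labelled and 0.59 ± 0.09 for tumor pieces, and that of Gapdh averaged 0.27 ± 0.02, 0.16 ± 0.02 and 0.21 ± 0.01 in the same order.

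Of the 9 genes, 7 were bright enough to be tested. The levels are plotted by piece. In tumor against wild-type liver, Car3, Car5a and Car14 were called lower and none was called higher. Among all genes tested, 4.59% were called lower and 8.41% higher in this comparison. In adjacent-labelled against wild-type liver, Car5a was called lower and Car2 higher, where 3.22% of all genes were called lower and 8.29% higher. In tumor against adjacent-labelled liver, Car3 and Car14 were called lower and none higher, where 2.94% of all genes were lower and 2.1% higher. The median difference of the 7 tested members was -0.59, -0.08 and -0.53 in the 3 comparisons, in that order, and that of all genes was -0.01 in each.

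**Figure D1:**
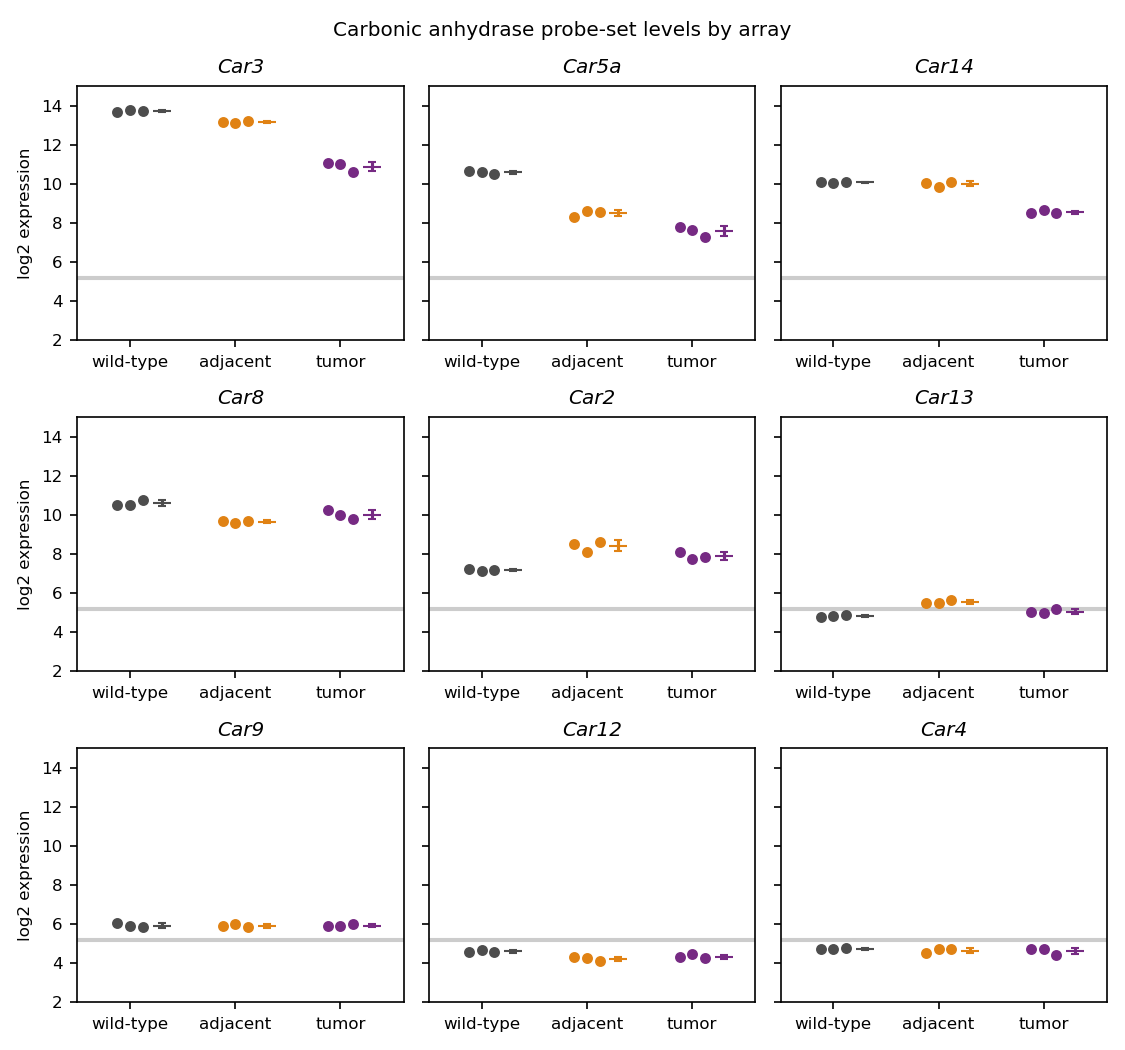
Level of each of the 9 carbonic anhydrases in every piece, with the log2 expression on the vertical axis, the 3 groups on the horizontal axis, points for pieces, a mark with SD beside them for the group mean and a grey band for the filter limit. Car3, Car5a and Car14 sit lowest in tumor, Car2 sits highest in adjacent-labelled liver, and Car9 stays between 5.83 and 6.05 in all 9 pieces.

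Non-overlap between groups was common on these arrays. The 3 values of tumor and wild-type liver did not overlap for 6 of the 7 tested members, against 69.1% of all genes, and 6 passed the adjusted p alone, against 63.4%. For adjacent-labelled against wild-type liver 5 members did not overlap, against 69.5%, and 5 passed the adjusted p alone, against 63%. For tumor against adjacent-labelled liver the counts were 6 and 6, against 53% and 45.2% of all genes.

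Car5a, the mitochondrial isoform that supplies bicarbonate to carbamoyl phosphate synthetase and pyruvate carboxylase, was high in wild-type liver and lower in both tissues of the SART1+/- mouse. Its log2 level was 10.64, 10.60 and 10.52 in the wild-type pieces, 8.31, 8.61 and 8.56 in the adjacent-labelled pieces and 7.79, 7.63 and 7.30 in the tumor pieces. No group overlapped another, and tumor lay lowest. Against wild-type liver, Car5a fell by 3.01 in tumor (8.07-fold, SE 0.12, adjusted p = 7.92e-09, limma) and fell by 2.09 in adjacent-labelled liver (4.27-fold, adjusted p = 1.49e-07, limma). Tumor was 0.92 below adjacent-labelled liver (adjusted p = 0.000121, limma), just short of the minimum difference. Leaving out adjacent-labelled piece 1 gave -1.01 and leaving out tumor piece 1 gave -1.03, both past it. Leaving out any other piece gave -0.95 to -0.78, short of it. Because the tissue is a mixture, fewer cells of a type and less RNA per cell cannot be told apart for this and every gene below.

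Car3, the cytosolic isoform that is abundant in liver, skeletal muscle and fat and has low hydratase activity, followed another course. The brightest of its probe sets on average read 13.68, 13.76 and 13.72 in wild-type pieces, 13.17, 13.10 and 13.22 in adjacent-labelled liver and 11.04, 11.01 and 10.60 in tumor. The tumor pieces were far below the rest, whereas adjacent-labelled liver was only slightly below wild-type. Car3 fell by 2.83 in tumor against wild-type liver (7.13-fold, SE 0.105, adjusted p = 4.58e-09, limma) and fell by 2.28 against adjacent-labelled liver (adjusted p = 1e-07, limma). In adjacent-labelled against wild-type liver it was 0.55 lower (adjusted p = 0.00096, limma) and was not called.

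The 4 probe sets of Car3 gave the same direction in tumor and different results in adjacent-labelled liver. The second bright probe set (1460256_at) fell by 4.13 in tumor and fell by 1.20 in adjacent-labelled liver against wild-type liver (adjusted p = 1.43e-10 and 1.52e-06 over 24140 probe sets, limma). In tumor, probe sets 1430584_s_at and 1453588_at differed by -2.14 and -2.05, but in adjacent-labelled liver they were 0.03 and 0.33 above wild-type liver (adjusted p = 0.878 and 0.191, limma). The 2 bright probe sets reach 13.99 in wild-type liver, near the top of the arrays, whose highest values are 14.43 to 14.51. Whether brightness near that ceiling compresses the differences was not tested.

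**Figure D2:**
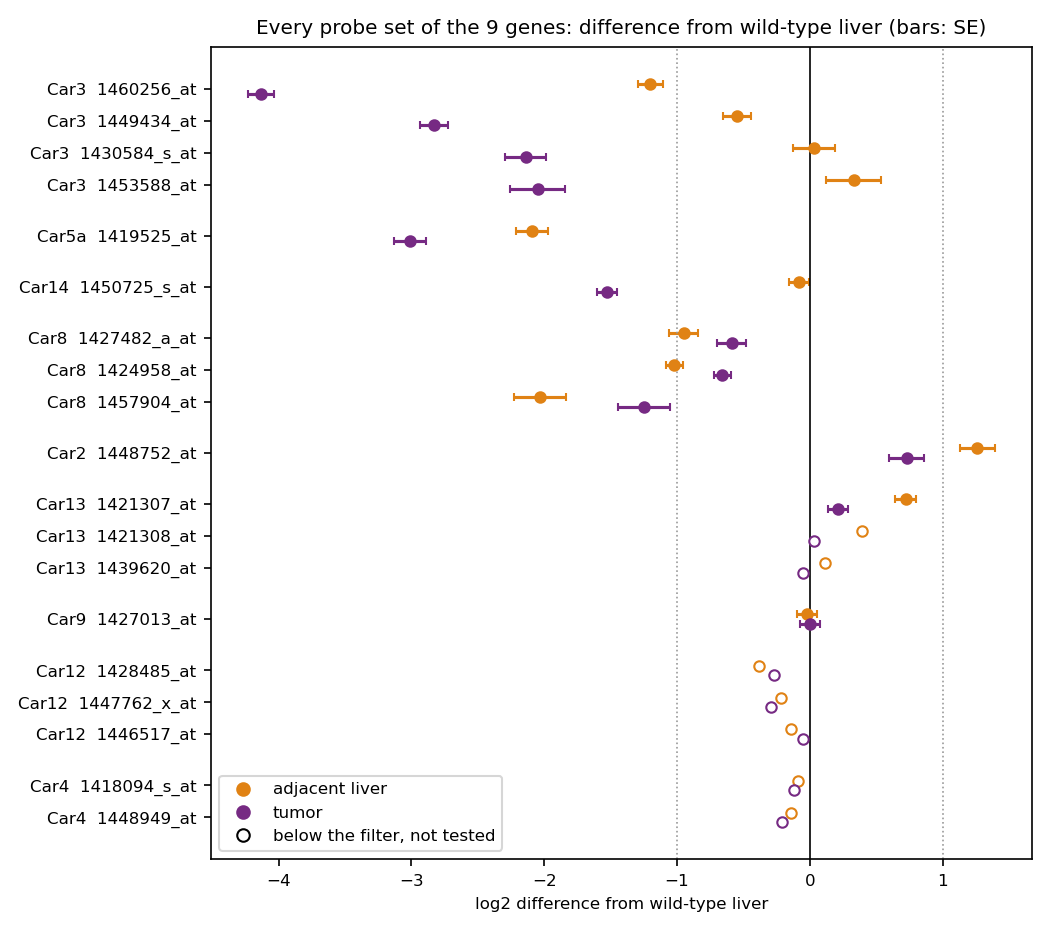
Log2 difference from wild-type liver for every probe set of the 9 genes, in adjacent-labelled liver and in tumor, with bars for the SE and open points for probe sets below the filter, which were not tested. All 4 probe sets of Car3 lie at -2.05 or below in tumor, while in adjacent-labelled liver they spread from -1.20 to 0.33. Probe set 1453588_at was under the filter limits in tumor.

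Car14, a membrane isoform with an extracellular active site that is present on hepatocytes, fell in tumor. It read 10.10, 10.05 and 10.11 in wild-type pieces, 10.05, 9.86 and 10.10 in adjacent-labelled liver and 8.52, 8.65 and 8.50 in tumor. Wild-type and adjacent-labelled values overlapped, and tumor lay below both. Tumor was 1.53 below wild-type liver (95% interval -1.70 to -1.37, 2.89-fold, adjusted p = 3.03e-08, limma) and 1.45 below adjacent-labelled liver (adjusted p = 1.92e-07, limma). Adjacent-labelled liver differed from wild-type by -0.08 (95% interval -0.25 to 0.08, adjusted p = 0.346, limma).

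Car2, the fast cytosolic enzyme of bile duct cells, kidney and osteoclasts, was called higher in adjacent-labelled liver. Its level was 7.21, 7.12 and 7.16 in wild-type pieces, 8.53, 8.11 and 8.63 in adjacent-labelled liver and 8.11, 7.74 and 7.83 in tumor. All pieces of the SART1+/- mouse were above all wild-type pieces. The differences were 1.26 in adjacent-labelled liver (2.4-fold, SE 0.131, adjusted p = 1.24e-05, limma) and 0.73 in tumor (adjusted p = 0.000643, limma), the latter below the minimum difference. The summed log2 level of the 10 cholangiocyte markers on the array ran in the same order, at 9.43 to 9.51 in wild-type liver, 11.99 to 12.33 in adjacent-labelled liver and 11.41 to 11.53 in tumor. Of these markers, 5 were called higher in adjacent-labelled liver (Krt23, Cldn7, Slc5a1, Prom1 and Cftr), but the defining duct keratins Krt19 and Krt7 and Epcam were not called in any comparison (adjacent-labelled against wild-type -0.13, 0.21 and -0.06). Cftr read 5.32 ± 0.05 in adjacent-labelled liver, 3.98 ± 0.09 in wild-type liver and 4.44 ± 0.35 in tumor. It passed the filter through the group in which it was highest, so no support is drawn from its call. Car2 is also known from other cells whose markers were measured. Of 8 tested osteoclast markers, Ocstamp and Atp6v0d2 were called higher in adjacent-labelled liver (1.76 and 1.36), and Ocstamp alone in tumor (6.13). None of 4 tested kidney tubule markers was called, and of 12 gastric and intestinal markers 4 were called higher in adjacent-labelled liver (Vil1, Tff2, Tff3 and Tspan8) and 3 in tumor (Vil1, Tff3 and Tspan8). The summed level of 8 erythroid markers was 11.52 to 11.68 in wild-type liver, 10.98 to 11.16 in adjacent-labelled liver and 10.36 to 10.43 in tumor. The part of these lists in the Car2 result was not tested.

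Car8 lacks the catalytic activity of the family and binds the inositol trisphosphate receptor. It read 10.52, 10.52 and 10.76 in wild-type pieces, 9.67, 9.58 and 9.71 in adjacent-labelled liver and 10.24, 10.00 and 9.79 in tumor. Each group was separate from the other two, with adjacent-labelled liver lowest. The differences from wild-type liver were -0.95 in adjacent-labelled liver (adjusted p = 3.07e-05, limma) and -0.59 in tumor (adjusted p = 0.000872, limma), neither past the minimum difference. Both dimmer probe sets passed the minimum difference in adjacent-labelled liver. Probe set 1424958_at fell by 1.02 in adjacent-labelled liver (adjusted p = 2.5e-07, limma). Probe set 1457904_at fell by 2.03 in adjacent-labelled liver and fell by 1.25 in tumor (adjusted p = 6.34e-06 and 0.000242, limma). It passed the filter on 6 arrays and read 4.95, 4.46 and 5.10 in adjacent-labelled liver, under the filter limits of 5.16 to 5.26. Since it entered through the groups in which it was higher, no support is drawn from its p-values. The direction was the same in all 3 probe sets.

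Car13, a cytosolic isoform, was dim. It passed the filter on the 3 adjacent-labelled arrays alone, where it read 5.51, 5.50 and 5.67, compared with 4.79, 4.84 and 4.90 in wild-type liver and 5.02, 4.97 and 5.18 in tumor. The difference in adjacent-labelled liver was 0.72 (adjusted p = 1.37e-05, limma) and that in tumor 0.21 (adjusted p = 0.0297, limma), neither called. Since it entered through the group in which it was highest, no support is drawn from its p-value.

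Car9 was flat. Its single probe set read 6.05, 5.90 and 5.84 in wild-type pieces, 5.90, 6.0 and 5.83 in adjacent-labelled liver and 5.89, 5.89 and 6.0 in tumor, and all groups overlapped. The 95% interval of the difference from wild-type liver was -0.17 to 0.16 in tumor (adjusted p = 0.983, limma) and -0.19 to 0.14 in adjacent-labelled liver (adjusted p = 0.808, limma). Whether this signal lies above background was not tested. Car12 was below the filter in all 9 arrays on all 3 of its probe sets and was not tested. The brightest of them read 4.56, 4.69 and 4.59 in wild-type pieces, 4.31, 4.27 and 4.11 in adjacent-labelled liver and 4.31, 4.46 and 4.25 in tumor, all under the filter limits of 5.16 to 5.26. Car4, a lipid-anchored isoform of capillary endothelium, was below the filter as well, at 4.43 to 4.79 over the 9 arrays on the brighter of its probe sets.

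The liver isoforms and the hypoxia-linked isoforms were set against each other by centring each gene on its wild-type mean. The mean of Car3 and Car5a was at -1.41, -1.30 and -1.26 in the adjacent-labelled pieces and -2.74, -2.83 and -3.20 in the tumor pieces. That of Car9 and Car12 was at -0.17, -0.14 and -0.31 and at -0.17, -0.10 and -0.15. The gap between the pairs was -1.12 ± 0.15 (n = 3) in adjacent-labelled liver and -2.79 ± 0.25 (n = 3) in tumor, a description without a test. Car12 was below the filter on all 9 arrays and Car9 was not tested against background, so the size of the gap says little beyond the levels of Car3 and Car5a themselves. Car5a was well below its wild-type level in adjacent-labelled liver as well as in tumor. Car3 was so mainly in tumor, although its second bright probe set differed by -1.20 in adjacent-labelled liver.

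**Figure D3:**
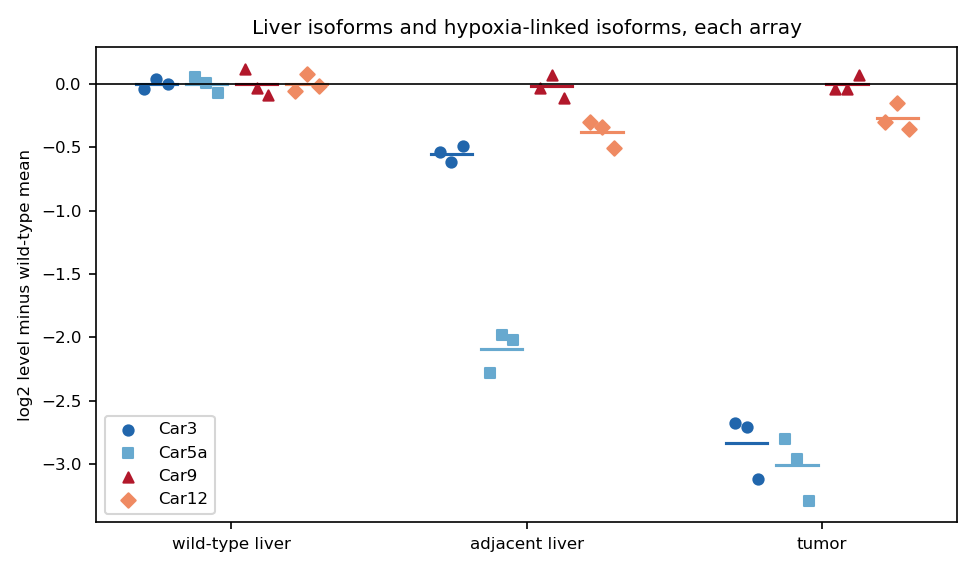
Log2 difference from the wild-type mean in each of the 9 pieces, for Car3 and Car5a and for Car9 and Car12. Car5a is at -2.28 to -1.98 in adjacent-labelled liver and Car3 at -0.62 to -0.49, both are at -2.68 or below in tumor, and Car9 and Car12 lie between -0.51 and 0.12 throughout.

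The start-site regions of Car9, Car12, Car5a and Car14 are shown because the core of the hypoxia response element, ACGTG or GCGTG, can be searched for in them. RefSeq promoter windows (GRCm38.p6) were matched for 5 of the 9 genes, and the 250 bases before the start were searched on both strands. No window was matched for Car2, Car3, Car8 and Car13, so the liver isoform Car3 was not searched. Capitals mark the match, written CACGT where ACGTG lies on the reverse strand.
Car9, chr4:43506776-43507025, plus strand: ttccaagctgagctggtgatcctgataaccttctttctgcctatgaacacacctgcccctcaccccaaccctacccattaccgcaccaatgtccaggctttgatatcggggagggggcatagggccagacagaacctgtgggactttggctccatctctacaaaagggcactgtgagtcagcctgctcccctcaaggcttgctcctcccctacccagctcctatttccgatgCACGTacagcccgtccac
Car12, chr9:66713436-66713685, plus strand: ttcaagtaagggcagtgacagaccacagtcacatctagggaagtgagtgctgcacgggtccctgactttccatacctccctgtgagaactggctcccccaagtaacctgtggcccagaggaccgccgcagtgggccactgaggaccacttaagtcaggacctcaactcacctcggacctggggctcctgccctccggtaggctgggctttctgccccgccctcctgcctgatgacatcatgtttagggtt
Car5a, chr8:121944913-121945162, minus strand: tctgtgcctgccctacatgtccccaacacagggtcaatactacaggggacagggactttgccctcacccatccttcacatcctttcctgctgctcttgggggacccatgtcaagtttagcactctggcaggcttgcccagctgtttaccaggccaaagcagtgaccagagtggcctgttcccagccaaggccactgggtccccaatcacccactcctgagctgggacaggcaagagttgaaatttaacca
Car14, chr3:95904686-95904935, minus strand: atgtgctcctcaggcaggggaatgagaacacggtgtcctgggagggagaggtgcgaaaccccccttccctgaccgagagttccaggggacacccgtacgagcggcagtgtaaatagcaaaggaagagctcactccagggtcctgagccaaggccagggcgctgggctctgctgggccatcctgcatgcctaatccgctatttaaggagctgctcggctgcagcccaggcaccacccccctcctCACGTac
The match of Car9 begins 18 bases before the start and that of Car14 begins 7 bases before it, while the windows of Car12, Car5a and Car4 hold none. Of 32851 windows of the same length, 38.6% hold ACGTG or GCGTG on either strand and 16.6% hold ACGTG. A match is only a description, and Car9 and Car14, which both hold one, read differently on the arrays.

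The genes whose course over the 9 arrays was most like that of Car3 were Ugt2a3, a glucuronosyltransferase, Retsat, a retinol saturase, and Cyp2j5, a cytochrome P450, with root-mean-square differences of 0.15, 0.20 and 0.21 after centring. Those most like Car5a were Gstk1, a mitochondrial and peroxisomal glutathione transferase, Nat8f1 and Suox, the sulfite oxidase, at 0.12, 0.18 and 0.19. Gstk1 fell by 3.01 in tumor and fell by 2.10 in adjacent-labelled liver. For Car9 the nearest genes were Ptpn18, Gpr158 and Rnf40, but 8010 tested genes lay within 0.25 of it, and for Car12 the nearest were Usp53, Sox14 and Slc45a1, with 6321 within 0.25. A nearly flat course was thus shared by many genes, and likeness carries little for these.

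Car13, Car1, Car3 and Car2 are 4 consecutive protein-coding genes on chromosome 3 in the RefSeq annotation of GRCm38.p6. In adjacent-labelled against wild-type liver their differences were, in that order, 0.72, -1.17, -0.55 and 1.26. Only Car1, lower, and Car2, higher, were called among the 4 in this comparison. Car1, the erythrocyte isoform, read 6.73 ± 0.15, 5.56 ± 0.04 and 4.58 ± 0.09 in wild-type liver, adjacent-labelled liver and tumor. It was called lower in adjacent-labelled liver and tumor against wild-type (adjusted p = 6.96e-07 and 6.09e-09, limma). Its tumor values of 4.68, 4.49 and 4.58 were under the filter limits, so Car1 was tested through the groups in which it was higher. No support is drawn from its p-value in tumor. The summed level of 8 erythroid markers ran in the same order, from 11.52 to 11.68, to 10.98 to 11.16, to 10.36 to 10.43. Of the 5 that could be tested, Alas2 and Klf1 were called lower in tumor, and Alas2 was called lower and Tfrc higher in adjacent-labelled liver, with a list median of -0.28 in both. Their part in the Car1 result was not tested. The 6 tested genes among the 7 other family members held no further call against wild-type liver. Car7, a cytosolic isoform of neurons, was 0.56 above wild-type in adjacent-labelled liver and 0.84 below it in tumor, neither called, and the 1.41 between those tissues was called lower in tumor (adjusted p = 5.03e-06, limma).

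Among enzymes that use bicarbonate or bring nitrogen into the urea cycle, 7 of 10 tested were called lower in tumor and 4 of 10 in adjacent-labelled liver, none higher, with medians of -1.27 and -0.90 against -0.01 for all genes. Pccb and Mccc2, subunits of propionyl- and methylcrotonyl-CoA carboxylase, differed by -1.48 and -1.43 in tumor and by -1.58 and -1.35 in adjacent-labelled liver, all called. Otc, the next urea cycle enzyme after carbamoyl phosphate synthetase, fell by 1.89 in tumor and was 0.98 lower in adjacent-labelled liver, short of the minimum difference, which its other 2 probe sets passed there (-1.38 and -1.35, adjusted p = 7.37e-05 and 0.000125, limma). Of the users of mitochondrial bicarbonate, Cps1, carbamoyl phosphate synthetase, differed by -1.37 in tumor (adjusted p = 3.31e-07, limma) and was called. In adjacent-labelled liver Cps1 differed by -0.58 and was not called. Pcx, pyruvate carboxylase and another such user, was 0.46 lower in tumor and 0.29 higher in adjacent-labelled liver, neither called.

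Membrane carriers of bicarbonate, protons and lactate were called in both directions. Of 22 tested, 1 was called higher and 2 lower in tumor, where 8.41% of all genes were called higher and 4.59% lower. In adjacent-labelled liver 3 were called higher and 2 lower, where the shares of all genes were 8.29% and 3.22%. The 3 higher include Cftr, which passed the filter through adjacent-labelled liver alone. The list medians were 0.06 in tumor and -0.03 in adjacent-labelled liver, with -0.01 for all genes. These counts are small, and nothing is read from them about the carriers as a group. Slc26a1, a sulfate and bicarbonate exchanger of the hepatocyte, fell by 1.86 in tumor and fell by 1.09 in adjacent-labelled liver, where another probe set gave -0.97, while Slc26a2 rose by 1.52 in tumor. Slc26a6, an anion exchanger of epithelia, rose by 1.14 in adjacent-labelled liver, the group in which Car2 was highest.

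Targets of the hypoxia-inducible factors other than Car9 gave 5 higher and 2 lower of 23 tested in tumor, and 2 higher and 1 lower in adjacent-labelled liver. Hk2, hexokinase, rose by 1.30 and 1.28 in tumor and adjacent-labelled liver, and Aldoa and Pfkfb4, both of glycolysis, rose by 1.13 and 1.11 in tumor. Mxi1 fell by 1.19 in tumor, where another probe set gave -0.87. The median over the list was 0.26 in tumor and -0.03 in adjacent-labelled liver, with -0.01 for all genes. None of 8 hypoxia regulators was called: Hif1a was 0.66 and Epas1 0.43 above wild-type liver in tumor, although another Epas1 probe set gave 1.04.

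Liver genes that depend on growth hormone or differ by sex were lower in large part. Of 15 tested, 10 were called lower in tumor with none higher, and 9 lower and 1 higher in adjacent-labelled liver. Slco1a1 and Hsd3b5 differed by -6.27 and -7.09 in tumor and by -5.70 and -6.53 in adjacent-labelled liver. A further probe set of Cyp7b1 differed by -4.95 in tumor and -1.90 in adjacent-labelled liver. Further probe sets of Igf1 differed by -2.68 to -2.23 and by -1.35 to -1.21. In tumor against adjacent-labelled liver, 3 of the 15 were called lower, Cyp7b1 among them, and 2 higher. Car3 was lower mainly in tumor. Of 13 pericentral hepatocyte markers, 11 were called lower in tumor and 12 in adjacent-labelled liver, and their part in the Car3 and Car5a results was not tested. Of 10 periportal markers, 3 were called lower and 1 higher in tumor, and 5 lower and 1 higher in adjacent-labelled liver. None of 6 tested skeletal muscle markers was called. Of 7 tested adipocyte markers, 2 were called higher (Fabp4 and Cidec) and 2 lower (Cidea and Plin4) in tumor, and 1 higher (Fabp4) and 3 lower (Cidec, Cidea and Plin4) in adjacent-labelled liver, while Adipoq and Lep were below the filter. The part of these lists in the Car3 result was not tested.

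**Figure D4:**
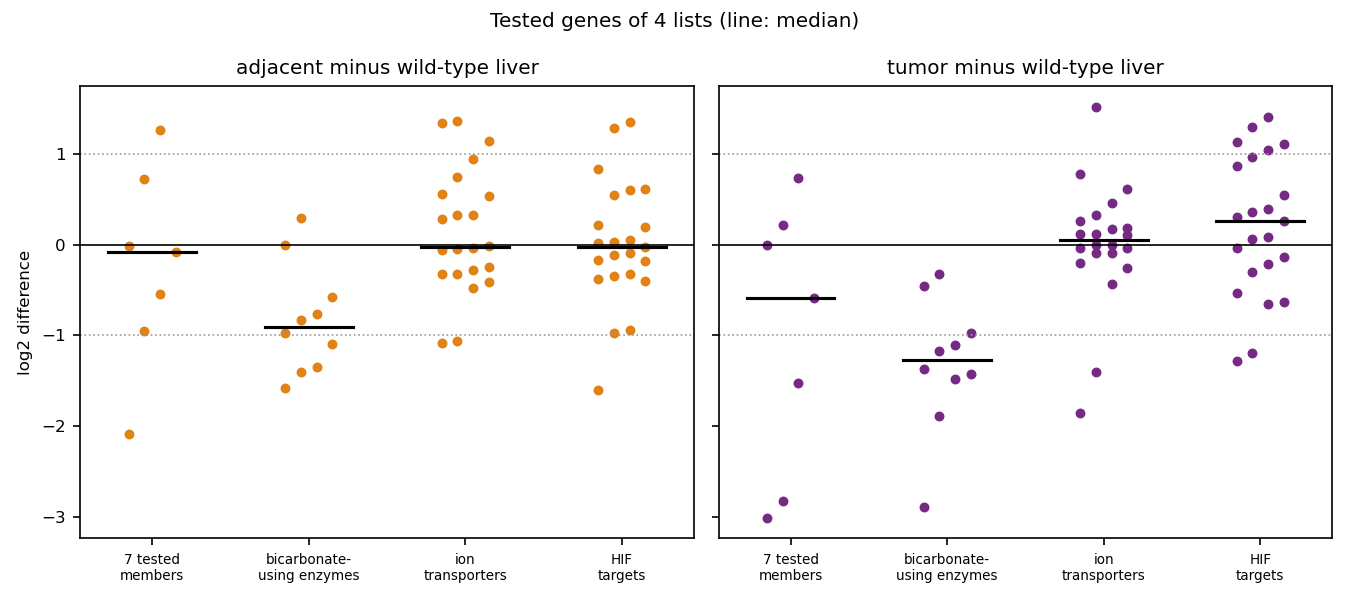
Log2 difference from wild-type liver for each tested gene of 4 lists, in adjacent-labelled liver and in tumor. Points are genes and a bar is the list median. The lists are the 7 tested carbonic anhydrases, enzymes that use bicarbonate or bring nitrogen into the urea cycle, ion transporters and hypoxia-inducible factor targets. The enzymes that use bicarbonate or bring nitrogen into the urea cycle have medians of -0.90 and -1.27. Those of the hypoxia-inducible factor targets are -0.03 and 0.26.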

How the data were processed

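RNA from 9 liver pieces was labelled with a 3′ kit and hybridised to Affymetrix arrays. The submitters' processing notes name RMA and Affymetrix Expression Console (1.3.1.187), and the values the authors deposited are on the log2 scale, judging by their range. RMA equalises the distribution over arrays, so a shift common to all genes is not seen. The table holds 45101 probe sets, of which 34958 carry 1 gene symbol, 932 several and 9211 none in the array annotation given. Each gene was represented by its probe set of highest mean, and genes were tested if 3 or more of the 9 arrays put them over that array's 40th percentile. limma 3.58.1 (R 4.3.3) was fitted with 1 mean per group, leaving 6 residual degrees of freedom, with Benjamini-Hochberg adjustment over 13888 genes. A fit over 24140 probe sets gave the values of further probe sets. The fit was checked on data made with known changes. The members and lists were chosen with earlier results of these data known. Genes named from a list are among the 4 of smallest adjusted p in tumor against wild-type liver, not all of which are named. Pcx, Cps1 and the cell type markers named were added after their values were seen. Pairing of the replicate numbers was checked by the correlation of same-numbered deviations, which ran from -0.11 to 0.14, so the numbers were not used as a block. 2 animals gave all pieces, and the number of arrays limits the precision. No scan date or detection call was used.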

Additional observations from a re-analysis of the deposited data

Results flagged for a closer look

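Car7, a family member outside the 9 genes, was 1.41 lower in tumor than in adjacent-labelled liver (-1.41, adjusted p = 5.03e-06, limma), with all 3 adjacent-labelled pieces above the wild-type pieces and all 3 tumor pieces below them. Its other 2 probe sets differed by -0.35 and -0.45 between these groups. The difference between tissues was tested directly by this comparison.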

How the results depend on the processing

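Of 411 differences of single members recomputed under the alternatives, 383 kept their direction and call, 18 became called where the reported value had not been, and 10 changed sign. Part of the 18 came from the adjusted p alone, which drops the minimum difference and leaves the values unchanged. The 10 sign changes were all of Car9, whose differences stayed near 0. Under cyclic loess they became 0.05 in tumor against wild-type liver, 0.05 in adjacent-labelled against wild-type liver and -0.00018 in tumor against adjacent-labelled liver. Leaving out 1 replicate at a time gave -0.05 to 0.06, -0.07 to 0.04 and -0.02 to 0.07 in the same order. With the most variable probe set of each gene, 4 members were called in adjacent-labelled against wild-type liver, Car3 (-1.20) and Car8 (-2.03) joining Car2 and Car5a. The Car8 value is that of probe set 1457904_at, which was under the filter in adjacent-labelled liver. The gap between liver and hypoxia-linked isoforms became -1.45 in adjacent-labelled liver and -3.44 in tumor. With the adjusted p alone, 8799, 8745 and 6274 genes and 6, 5 and 6 members were called in the 3 comparisons, in the order tumor against wild-type, adjacent-labelled against wild-type and tumor against adjacent-labelled. Car8 in adjacent-labelled liver passed the minimum difference with the mean of its probe sets (-1.33), with array medians subtracted (-1.01) and, narrowly, under cyclic loess.

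The replicate number as a block gave 1807, 1599 and 700 called genes and 3, 2 and 2 called members, and changed no call of a member; same-numbered pieces did not deviate together. Signal near the filter limits what can be said of Car4, Car12 and Car13.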
